A study of Homo sapiens with 5 samples.

Results

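The 7 genes MT-ND1, MT-ND2, MT-ND3, MT-ND4L, MT-ND4, MT-ND5 and MT-ND6 encode the complex I subunits that are made inside mitochondria. They were taken by name from the deposited abundance table, which held 10504 genes with a single entry, and all 7 had values for RNA, ribosome footprints and translational efficiency (TE, footprint abundance over RNA abundance). The values come from HEK293A cells, a flat-growing subline of HEK293 human embryonic kidney cells, that received a control siRNA (siCon, 2 libraries) or an siRNA against IRE1a (siIRE1a, 2 libraries). IRE1a is a stress sensor of the endoplasmic reticulum encoded by ERN1. Both groups were serum-starved before fetal bovine serum was added, so no group without serum is in the comparison, and an additional Ribo-seq library multiplexed both groups. The tables gave 1 value per group and assay, with no spread between replicates, and the labels did not say whether the replicates were separate cultures.

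Complex I (NADH:ubiquinone oxidoreductase) passes electrons from NADH to ubiquinone and pumps protons across the inner mitochondrial membrane. Its membrane arm is built around the mitochondrially encoded subunits, and the remaining subunits are made by cytosolic ribosomes from nuclear genes and imported. Human mitochondrial DNA is transcribed from both strands as long precursors, which are cut, mostly at tRNAs, into mRNAs that mitochondrial ribosomes read. Most but not all of these mRNAs have little untranslated sequence, so coding length is not always mRNA length. MT-ND6 is the only protein-coding gene read from the strand opposite to the others, and MT-ND4L and MT-ND4 stay together on a single mRNA with overlapping reading frames.

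The coding sequences are shown because these genes differ in strand, length and base composition, and because MT-ND4L and MT-ND4 share bases. Positions are those of the GENCODE 29 annotation of GRCh38, and the sequences are its transcripts, printed 5′ to 3′ on the coding strand. The submitters' processing notes name hg19 and GRCh37, and no position was converted between builds. The 3 shortest members come first, MT-ND4L (chrM:10470-10766, plus strand) whole, and MT-ND3 (chrM:10059-10404, plus strand) and MT-ND6 (chrM:14149-14673, minus strand) by their first 300 bases. Capitals mark the start codon and, in MT-ND4L, also the 7 bases shared with MT-ND4.
MT-ND3: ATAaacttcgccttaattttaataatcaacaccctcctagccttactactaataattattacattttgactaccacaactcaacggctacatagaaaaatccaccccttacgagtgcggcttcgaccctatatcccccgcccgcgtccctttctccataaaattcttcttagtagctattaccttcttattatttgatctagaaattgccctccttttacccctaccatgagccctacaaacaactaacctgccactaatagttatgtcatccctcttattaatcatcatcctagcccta
MT-ND4L: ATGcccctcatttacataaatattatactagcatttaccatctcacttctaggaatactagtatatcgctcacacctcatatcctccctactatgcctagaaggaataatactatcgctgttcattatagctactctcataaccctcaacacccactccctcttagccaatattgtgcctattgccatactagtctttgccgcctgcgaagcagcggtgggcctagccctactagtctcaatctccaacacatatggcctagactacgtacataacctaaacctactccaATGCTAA
MT-ND6: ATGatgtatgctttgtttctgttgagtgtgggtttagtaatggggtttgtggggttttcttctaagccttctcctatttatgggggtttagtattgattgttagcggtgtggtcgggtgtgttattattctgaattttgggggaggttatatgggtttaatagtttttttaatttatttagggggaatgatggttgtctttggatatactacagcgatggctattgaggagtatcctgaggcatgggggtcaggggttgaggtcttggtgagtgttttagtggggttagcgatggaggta

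The first 30 bases of the longer members come next, to set their starts beside that overlap. Capitals mark the start codon in MT-ND1 (chrM:3307-4262), MT-ND2 (chrM:4470-5511) and MT-ND5 (chrM:12337-14148), and the 7 bases shared with MT-ND4L in MT-ND4 (chrM:10760-12137), all on the plus strand.
MT-ND1: ATAcccatggccaacctcctactcctcatt
MT-ND2: ATTaatcccctggcccaacccgtcatctac
MT-ND4: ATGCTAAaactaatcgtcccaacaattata
MT-ND5: ATAaccatgcacactactataaccacccta

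MT-ND6 stood apart in base composition. Its coding strand held 35.6% G and 7.05% C, while the other 6 members held between 9.50% and 12.1% G and between 29.5% and 36.0% C, as genes on opposite strands do. Its longest run of G was 5 bases, against 4 or fewer in the other 6, but the mitochondrial gene MT-CO2, not a member, also had 5. GGGG had 18 matches in MT-ND6, 2 in MT-CO2 and no more than 1 in each other mitochondrial mRNA. GC content was alike, from 40.2% in MT-ND3 to 47.7% in MT-ND1, with 42.7% in MT-ND6. Coding lengths ran from 297 nucleotides in MT-ND4L through 346 in MT-ND3, 525 in MT-ND6, 956 in MT-ND1, 1042 in MT-ND2 and 1378 in MT-ND4 to 1812 in MT-ND5. MT-ND5 ends at base 14148 and MT-ND6, on the other strand, at base 14149, so their coding ends adjoin. Whether reads were counted by strand, and how RNA was selected for sequencing, is not given in the sources used here. Without strand, RNA of MT-ND6 and antisense RNA of the same stretch cannot be told apart.

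Clusters that passed the instrument filter numbered 28769136 and 31876615 in siCon and 49112701 and 34172898 in siIRE1a, per the file headers of a run summary. Both siIRE1a libraries were thus deeper than both siCon libraries. The summary does not identify the multiplexed library, so the number of footprint reads is unknown. ERN1 RNA was 0.121 in siCon and 0.0736 in siIRE1a cells, 1.65-fold lower, and its footprints were 1.46-fold lower. Of 8 genes listed as markers of the HEK293 line, 5 had values (VIM, KRT8, KRT18, NES and NEFL), and NEFM, INA and PAX2 had none in the tables used here. VIM, encoding the filament protein vimentin, was the highest at 9.49 in RNA and 83.8 in footprints in siCon cells, and NES, encoding the filament protein nestin, the lowest at 0.168 and 0.574, below the medians of all genes (0.412 and 1.84). KRT18, KRT8 and VIM fell in TE in the authors' deposited table, by 0.65, 0.47 and 0.36 on the log2 scale (adjusted p = 0.00389, 0.0131 and 0.0415), and 0 of the 5 rose. Of 8878 genes tested there, 4.62% fell and 5.9% rose. Log2 RNA changes of KRT18, KRT8 and VIM were 0.45, 0.49 and 0.09, and their footprint changes were −0.21, 0.02 and −0.27. None of 9 blood and liver markers had a value.

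RNA of the MT-ND genes was among the most abundant in the table. The abundances are taken as per length, since they fell with coding length across 10190 annotated genes (Spearman's rho of −0.24 for RNA and −0.51 for footprints in siCon). Ranked among 10504 genes by RNA abundance, the members lay between rank 4 (MT-ND4) and rank 14 (MT-ND4L) in siCon and between rank 4 and rank 16, for the same genes, in siIRE1a. Together they held 15.4% of the summed RNA abundance in siCon and 16.0% in siIRE1a, and all 13 mitochondrial mRNAs held 52.0% and 50.7%. By footprint abundance the members held 0.324% and 0.370%, with ranks from 207 (MT-ND3) to 905 (MT-ND6) in siCon and from 169 to 856 in siIRE1a. The order of the genes differed between RNA and footprints, as the plot of levels by gene shows.

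**Figure D1:**
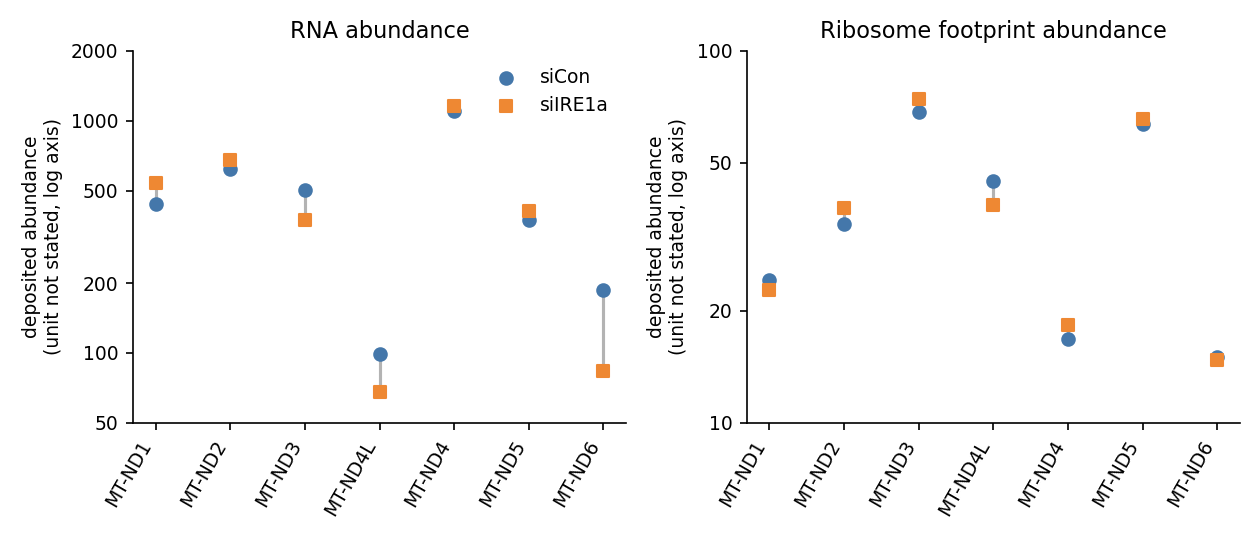
Deposited RNA abundance (left) and ribosome footprint abundance (right) of the 7 MT-ND genes on log axes, with 1 value per group (circles siCon, squares siIRE1a) and no error because replicates were not given. RNA of MT-ND6 has the widest gap between groups, 187 against 83.3, while its footprints are 15.0 and 14.8.

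Among the subunits thought to form proton channels, which are MT-ND2, MT-ND4 and MT-ND5, the deposited RNA values were slightly higher in siIRE1a cells. MT-ND2 RNA was 621 in siCon and 677 in siIRE1a, 1.09-fold higher, and its footprints were 34.3 and 37.8. MT-ND4 RNA was 1099.8 and 1160.1, the highest of the members in both groups, and its footprints were 16.8 and 18.4. MT-ND5, the subunit at the far end of the membrane arm, had RNA of 373 and 410.3 and footprints of 63.6 and 65.5. In each of these genes both assays were higher in siIRE1a cells, by 0.04 to 0.14 on the log2 scale. Under quantile normalization, which sets each value by its rank, the RNA change was 0 in MT-ND2 and MT-ND4 and 0.19 in MT-ND5. MT-ND2 and MT-ND4 kept ranks 8 and 4 in both groups, so their value of 0 was fixed by rank.

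MT-ND1, which lies at the ubiquinone site where the membrane arm meets the peripheral arm, had the largest RNA increase of the members. Its RNA was 439 in siCon and 538 in siIRE1a, 1.23-fold higher (log2 0.29), and its footprints were 24.2 and 22.8, 1.06-fold lower (log2 −0.09). The footprint difference of MT-ND1 was close to the median of all genes (log2 −0.08), and it became −0.0067 with median centring and 0.026 with quantile normalization, so its direction depended on the scaling.

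The small subunits MT-ND3, MT-ND4L and MT-ND6, which connect the ubiquinone site with the proton channels, all had lower RNA in siIRE1a cells. MT-ND3 RNA was 504 in siCon and 372 in siIRE1a, 1.35-fold lower (log2 −0.44), and its footprints were 68.6 and 74.3, the highest of the members in both groups. MT-ND4L RNA was 98.6 and 68.0, 1.45-fold lower (log2 −0.54), and its footprints were 44.8 and 38.6, 1.16-fold lower (log2 −0.21). MT-ND6 RNA was 187 and 83.3, 2.25-fold lower (log2 −1.17), with footprints of 15.0 and 14.8, the lowest of the members in both groups. The footprint difference of MT-ND6 was 1.02-fold, so the RNA and footprint values of this gene parted more than those of any other member. None of these RNA and footprint differences has a test, and in bulk values fewer cells with an mRNA and less of it per cell cannot be told apart.

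Set against all genes, the RNA change of MT-ND6 was far out in the distribution and the others were within it. MT-ND6 was the only member at least 1.5-fold lower in RNA, which is 1 of 7, against 7.23% of the 2159 genes whose RNA averaged 1 or more. No member was at least 1.5-fold higher, against 2.32% of these genes. At the 2-fold level MT-ND6 was again the only member, against 0.509% of these genes. Under quantile normalization its log2 change was −0.60, short of 2-fold and just past 1.5-fold. That method sets each value by its rank alone, and MT-ND6 went from rank 12 to rank 13. The value of −0.60 therefore does not measure the size of its change. In footprints, 0 of 7 members were at least 1.5-fold lower and 0 were at least 1.5-fold higher, against 0.867% and 0.384% of 7033 genes. The median RNA change of the members was 0.08 (−0.01 over all genes) and the median footprint change 0.04 (−0.08 over all genes), with 4 members above 0 in each assay. Of all genes, 0.124% had a lower RNA change than MT-ND6, and 13.3% and 8.49% had a lower one than MT-ND3 and MT-ND4L.

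**Figure D2:**
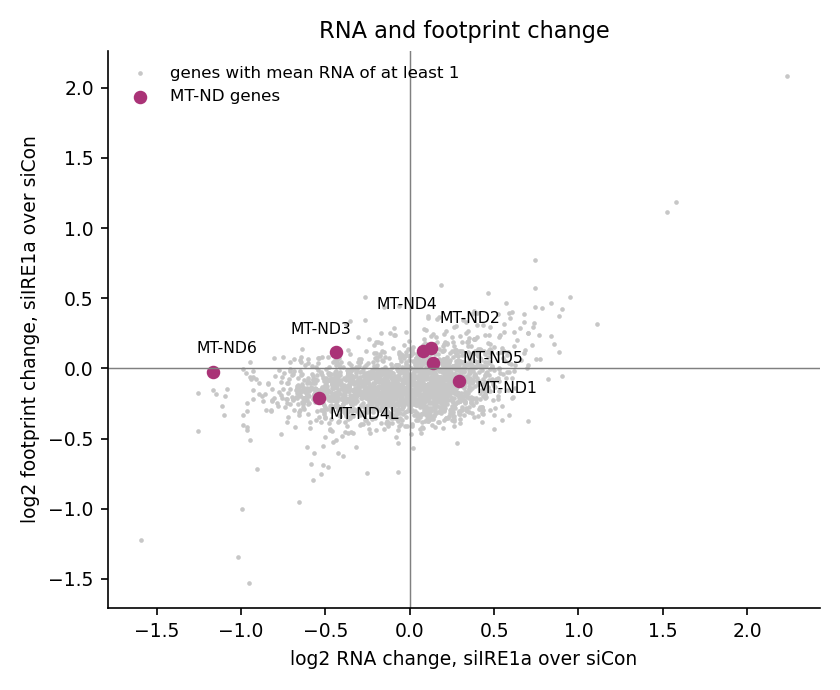
Log2 RNA change (x axis) against log2 footprint change (y axis), siIRE1a over siCon, with 1 grey point for each of the 2159 genes whose RNA averaged 1 or more and the 7 MT-ND genes in purple. MT-ND6 lies at −1.17 in RNA and −0.02 in footprints, and all members lie between −0.21 and 0.14 in footprints.

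TE was the measure with a test of its own, which is the authors'. In the authors' deposited table, 2 of 7 members rose in TE at an adjusted p under 0.05, where 5.9% of 8878 tested genes rose, and 0 of 7 fell, where 4.62% fell. At an adjusted p under 0.01 no member rose (0 of 7, against 2.28% of tested genes), and at 0.1 the count was again 2 (against 8.7%). MT-ND6 had TE values of 0.0802 in siCon and 0.177 in siIRE1a, and the authors' deposited table gave it a log2 change of 1.12 (adjusted p = 0.0317). The standard error that this p implies was 0.37, with a 95% interval from 0.39 to 1.85. MT-ND3 had TE values of 0.136 and 0.1996, and the authors' deposited table gave it a log2 change of 0.58 (adjusted p = 0.0115). Its implied standard error was 0.17, with an interval from 0.25 to 0.90. These implied errors assume a two-sided normal test with Benjamini-Hochberg adjustment, which the table does not state. In both genes the RNA difference was larger than the footprint difference.

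The other 5 members did not pass the authors' test. MT-ND4L had TE values of 0.454 and 0.567 and a log2 change of 0.35 in the authors' deposited table (adjusted p = 0.188). MT-ND1 had TE values of 0.0552 and 0.0423 and a log2 change of −0.35 in the authors' deposited table (adjusted p = 0.186). The implied standard error was 0.18 for both, so the 95% intervals ran from 0.0041 to 0.70 for MT-ND4L and from −0.70 to −0.0054 for MT-ND1 before adjustment. MT-ND2 (0.06, adjusted p = 0.846), MT-ND4 (0.09, adjusted p = 0.7805) and MT-ND5 (−0.05, adjusted p = 0.931) had small changes in the authors' deposited table. The difference in TE change between MT-ND6 and the other members was not tested.

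**Figure D3:**
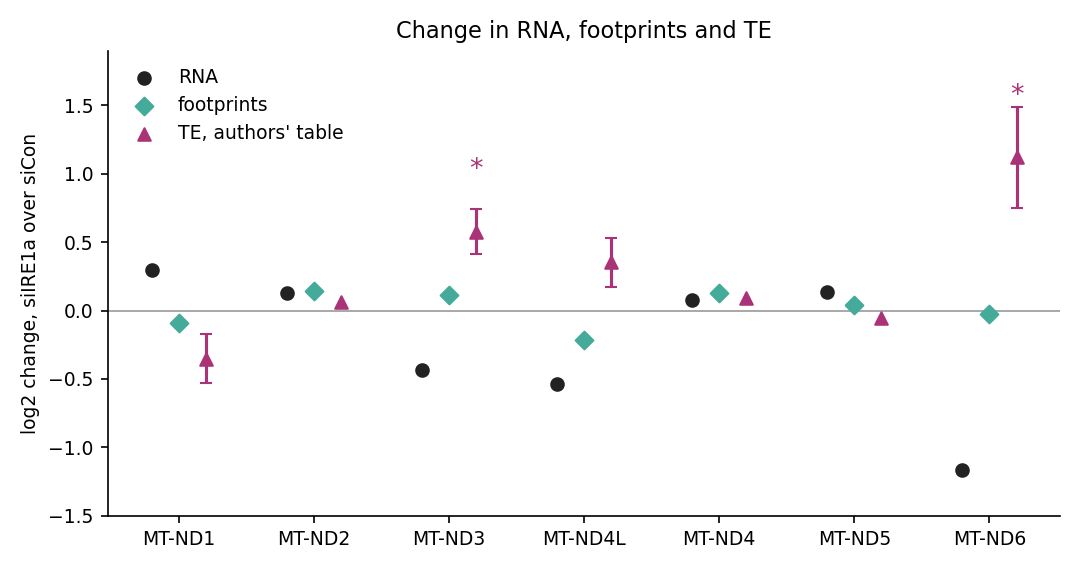
Log2 change, siIRE1a over siCon, of each MT-ND gene in RNA (circles), footprints (diamonds) and TE as given in the authors' deposited table (triangles). Bars are the implied standard errors, drawn for the 4 genes whose implied unadjusted p was under 0.5, and asterisks mark an adjusted p under 0.05, which MT-ND3 (0.58) and MT-ND6 (1.12) had.

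Both TE calls were lost when the relation of TE change to transcript GC content over all genes was removed. This alternative was chosen after the data were seen. The trend removed was 0.26 for MT-ND3 and 0.16 for MT-ND6. Calls over all genes also became fewer, 86 up and 42 down in place of 524 and 410, and adjusted p-values depend on all genes. MT-ND3 then had a log2 change of 0.31 (adjusted p = 0.484) and MT-ND6 one of 0.96 (adjusted p = 0.226), and with the change centred on the median of all genes the adjusted p-values were 0.00697 and 0.0257, all with the implied standard errors and Benjamini-Hochberg adjustment. The median RNA change was −0.30 over 1773 nuclear genes within 2 percentage points of the GC content of MT-ND3, and −0.20 over 1826 such genes for MT-ND6, beside RNA changes of −0.44 and −1.17 for the members themselves.

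Within the mitochondrial mRNAs, RNA change ran with coding length and with GC content. The 3 members of 525 nucleotides or less had RNA changes from −1.17 to −0.44, and the 4 members of 956 nucleotides or more had changes from 0.08 to 0.29, so these groups did not overlap. Across the 7 members Spearman's rho of RNA change was 0.64 with length and 0.75 with GC content. Across all 13 mitochondrial mRNAs it was 0.77 with length and 0.71 with GC content. These are descriptions over genes that share the same libraries and the same 2 precursor strands. Among complex III, IV and V genes, MT-ATP8, encoding an ATP synthase subunit, was at −0.58 with 207 nucleotides. MT-CO1, encoding the catalytic subunit of cytochrome c oxidase, was at 0.26 with 1542, while MT-CYB, encoding cytochrome b, was at −0.27 with 1141. MT-ATP6 and MT-CO2, close in length at 681 and 684 nucleotides, were at −0.34 and 0.13, and MT-CO3, with 784, was at −0.09. Over nuclear genes the median RNA change was −0.06 for 762 genes with a coding length up to 525 nucleotides and −0.0072 for 9415 longer ones. Across 10190 genes rho was 0.12 with coding length and 0.62 with GC content. The part of length and of GC content in the members' RNA changes was not tested.

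**Figure D4:**
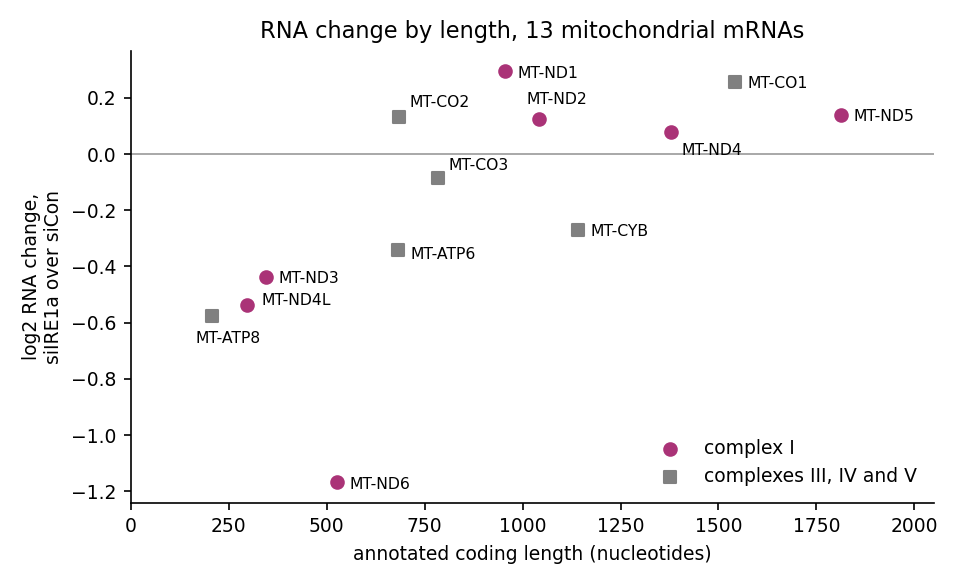
Log2 RNA change, siIRE1a over siCon (y axis), against annotated coding length in nucleotides (x axis) of the 13 mitochondrial mRNAs, with complex I genes as circles and complex III, IV and V genes as squares, 1 point per gene. The members of up to 525 nucleotides lie below −0.4 and those of 956 or more lie above 0.

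Ratios between members within a group do not change when that group is divided by 1 constant. They do change under quantile normalization, which sets values by rank and gave RNA changes of −0.60 for MT-ND6 and −0.37 for MT-ND4L. MT-ND6 RNA was 0.502 of MT-ND5 RNA in siCon and 0.203 in siIRE1a, while the ratio of their footprints was 0.236 and 0.225. MT-ND4L and MT-ND4 lie on a single mRNA, but RNA abundance over MT-ND4L was 11.2-fold below that over MT-ND4 in siCon and 17.1-fold below in siIRE1a. Footprint abundance over MT-ND4L was instead 2.66-fold above that over MT-ND4 in siCon and 2.10-fold above in siIRE1a. The TE of MT-ND4L was thus 29.7-fold that of MT-ND4 in siCon and 35.9-fold in siIRE1a, the widest span among the members. How reads in the 7 shared bases, or reads near gene ends, were assigned is not given in the sources used here, so RNA and TE of this pair are uncertain. MT-ND3 and MT-ND4, with footprints 4.08-fold apart in siCon and 4.05-fold in siIRE1a, had RNA 2.18-fold and 3.12-fold apart in the other direction.

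The order of footprint abundance was the same in both groups: MT-ND3, MT-ND5, MT-ND4L, MT-ND2, MT-ND1, MT-ND4 and MT-ND6, from high to low. The highest was 4.58-fold above the lowest in siCon and 5.04-fold in siIRE1a. RNA spanned 11.2-fold and 17.1-fold, with MT-ND4 highest and MT-ND4L lowest, and MT-ND3 went from the third place in siCon to the fifth in siIRE1a, behind MT-ND1 and MT-ND5. With 1 value per group, whether neighbours in these orders differ beyond their spread is unknown. TE was lowest of all 10504 genes in MT-ND4, at 0.0153 in siCon and 0.0158 in siIRE1a, and the highest member, MT-ND4L, was 46th and 83rd from the lowest. The median TE of all genes was 4.70 and 4.62. Footprints of mitochondrial and cytosolic ribosomes are not separated in the tables, and how fully mitochondrial footprints were recovered was not tested.

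In the deposited values, taken as per length, every MT-ND gene had fewer footprints than every mitochondrially encoded gene of complexes III, IV and V. This separation did not hold for values multiplied by coding length. MT-ND5 was then at 115.3 in siCon and 118.7 in siIRE1a, above MT-CYB at 114.2 and 114.9. As deposited, the MT-ND genes ranged from 15.0 to 68.6 in siCon and from 14.8 to 74.3 in siIRE1a. The other 6 genes ranged from 100.1 (MT-CYB) to 223 (MT-CO1) in siCon and from 97.9 (MT-ATP6) to 225 (MT-CO1) in siIRE1a. The members held 23.4% and 24.1% of the summed footprint abundance of the 13 genes and 29.6% and 31.6% of their summed RNA abundance. The RNA ranges of the members and the other 6 genes overlapped only through MT-ND4. It lay above MT-CO3 and MT-ATP8 in both groups, above MT-CO2 in siCon and above MT-CYB in siIRE1a. The next member, MT-ND2, was at 621 in siCon and 677 in siIRE1a. The lowest of the complex III, IV and V genes were at 823 (MT-CO3) in siCon and 686 (MT-ATP8) in siIRE1a. Of those 6 genes, 1 rose in TE in the authors' deposited table, MT-ATP8 (log2 0.57, adjusted p = 0.0183), and 0 fell.

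The nuclear-encoded partners of the MT-ND proteins had mostly lower footprints in siIRE1a cells, as did most genes in the table. Of 35 measured nuclear complex I subunit genes, 31 had a footprint change below 0 and the median was −0.12, while 21 had an RNA change above 0 and the median was 0.06. Of all 10504 genes, 7132 had a footprint change below 0, with a median of −0.08, and 5129 had an RNA change above 0, with a median of −0.01. Of these 35, 1 rose in TE and 3 fell in the authors' deposited table. NDUFC2, an accessory subunit of the membrane arm, rose by 0.54 on the log2 scale (adjusted p = 0.0431) in the authors' deposited table. Its RNA changed by −0.73 and its footprints by −0.22. NDUFS6, a zinc-binding subunit of the peripheral arm, fell by 0.46 (adjusted p = 0.0132), NDUFV1, which binds NADH and flavin, fell by 0.60 (adjusted p = 0.0220), and NDUFB7 of the membrane arm fell by 0.83 (adjusted p = 0.0311), all as log2 changes in the authors' deposited table. Log2 RNA changes of NDUFS6, NDUFV1 and NDUFB7 were 0.25, 0.49 and 0.43, and their footprint changes were −0.23, −0.095 and −0.38. The widest footprint difference, singled out after its value was seen, was in NDUFA7, from 21.3 to 7.40 (log2 −1.53). This was also the lowest footprint change of all 10504 genes, and NDUFA7 did not pass the authors' TE test. Summed footprint abundance was 267 over the 7 MT-ND genes and 843 over the 35 nuclear ones in siCon, and 272 and 757 in siIRE1a.

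In lists of genes that act on complex I or on mitochondrial mRNAs, the TE calls were close to the share over all genes tested in the authors' deposited table, of which 5.9% rose and 4.62% fell. Among 16 measured complex I assembly factors the median changes were −0.16 in RNA and −0.20 in footprints, and of 13 tested by the authors, 1 rose and 0 fell in their deposited table. It was TMEM126B, part of the assembly complex for the membrane arm, for which the authors' deposited table gave 0.70 on the log2 scale (adjusted p = 0.0154). Its RNA changed by −0.72 and its footprints by −0.03. ACAD9, of the same assembly complex, was at −0.48 (adjusted p = 0.102) and the assembly factor NDUFAF4 at 0.43 (adjusted p = 0.106) in the authors' deposited table. Among 15 mitochondrial translation factors the medians were −0.21 and −0.15, and of 13 tested 0 rose and 1 fell in the authors' deposited table. It was OXA1L, which inserts newly made mitochondrial proteins into the inner membrane, for which the authors' deposited table gave −0.61 on the log2 scale (adjusted p = 0.0169). Its RNA changed by 0.29 and its footprints by −0.32. MRRF, the mitochondrial ribosome recycling factor, and ICT1, a rescue factor of stalled mitochondrial ribosomes, had −0.41 (adjusted p = 0.140) and −0.37 (adjusted p = 0.235) in the authors' deposited table.

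Among 28 genes of mitochondrial transcription and RNA handling the median change was −0.20 in RNA and −0.10 in footprints, and of 24 tested 2 rose and 1 fell in TE in the authors' deposited table. TFAM, which packages mitochondrial DNA and starts its transcription, rose by 0.66 on the log2 scale in the authors' deposited table (adjusted p = 7.83e-04). Its RNA was 1.44 in siCon and 0.876 in siIRE1a, and its footprints were 19.7 and 18.7. GRSF1, a protein of mitochondrial RNA granules that binds G-rich RNA such as that of the MT-ND6 strand, rose by 0.44 on the same scale in the authors' deposited table (adjusted p = 0.0291). Its RNA was 0.707 and 0.468 and its footprints were 9.58 and 8.48. DHX30, an RNA helicase of the same granules, fell by 0.60 on that scale in the authors' deposited table (adjusted p = 0.00699). Its RNA was 0.490 and 0.668 and its footprints were 2.79 and 2.50.

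**Figure D5:**
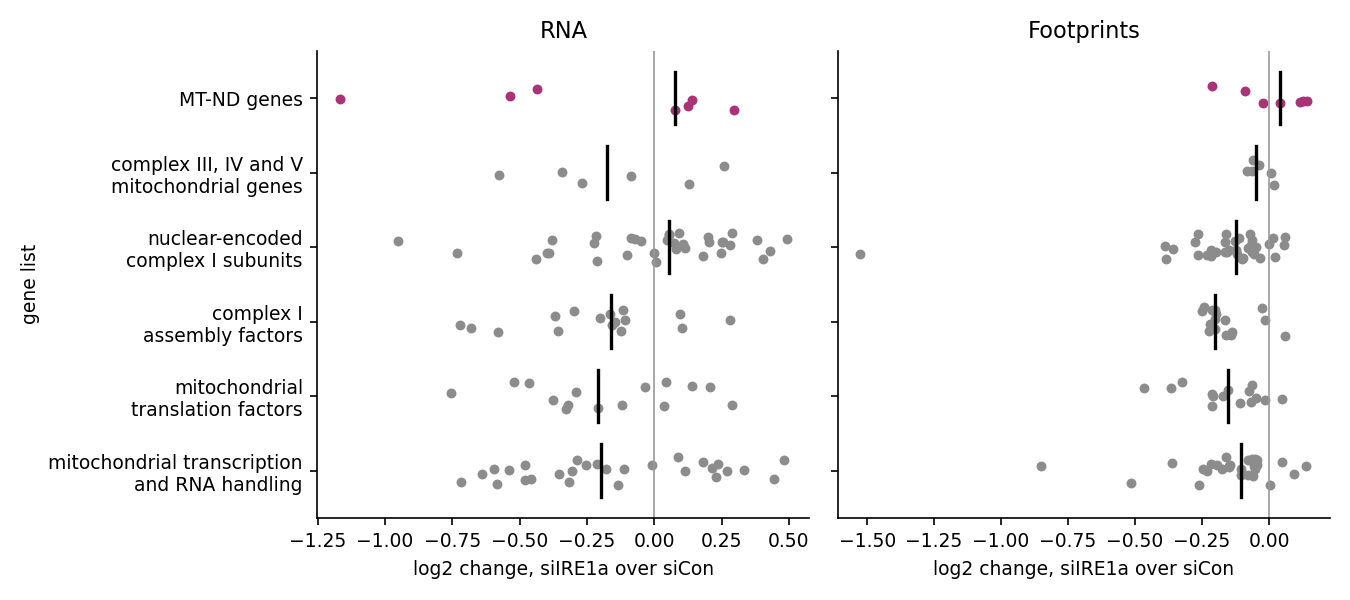
Log2 change in RNA (left) and footprints (right), siIRE1a over siCon, with 1 point per measured gene (7 MT-ND genes in purple, then 6, 35, 16, 15 and 28 genes) and a bar at each list's median. The MT-ND median was 0.08 in RNA and 0.04 in footprints, and the medians of the other lists in footprints were between −0.20 and −0.05.

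Genes whose changes lay nearest to those of the members were sought among 2159 genes, by Euclidean distance over the log2 RNA change and the log2 footprint change. Among the nearest to MT-ND6 were SEC23A (distance 0.13) and EIF1AX (0.16), which encode a COPII coat protein and a translation initiation factor. Both rose in TE in the authors' deposited table, by 1.04 and 0.98 on the log2 scale. As TE is footprints over RNA, choosing genes by these changes largely set their TE change in advance. The TE rise is therefore no further likeness to MT-ND6. Nearest to the median of the other 6 members were BUD31, PTPN1 and CTDSP2, at distances of 0.0097, 0.012 and 0.014. The likeness rests on 4 values per gene.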

How the data were processed

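The 5 samples of HEK293A cells were 2 siCon, 2 siIRE1a and 1 multiplexed Ribo-seq library, grouped by siRNA label and title. The descriptions tie siCon to RNA-seq and siIRE1a to Ribo-seq, whereas the tables hold both assays for both groups, so assays were read from column names. The authors deposited RNA and footprint abundances with 1 value per group and assay, whose unit, counting and combination of replicates are not given in the sources used here. The deposited TE columns hold a ratio, footprints over RNA, which was checked for every gene and held to within rounding. The authors also deposited a log2 change in TE with an adjusted p-value per gene, in a table named after DESeq2, and a run summary with a mean base quality score per library (35.86 to 36.03, per the file headers). The submitters' processing notes name hg19, GRCh37 and Bowtie 1.1.2.

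From 10522 entries, 18 entries of symbols listed more than once were left out. Changes are log2 of siIRE1a over siCon with no pseudocount, since the smallest abundance was 0.0104 and none was 0. No test of RNA or footprints was possible, and TE calls use the authors' adjusted p under 0.05, given for 8878 of the 10504 genes. Standard errors were back-calculated from it. Genes set beside the members were the list members with the 3 smallest adjusted p and those called where 5 or fewer were. Of the genes nearest to MT-ND6, 1 is not reported here. The members and lists were chosen with earlier results of these data known. Lengths, GC content (10190 genes, 97.0%) and sequences came from GENCODE 29. Alternatives were pseudocounts, scalings, thresholds, length scaling and a GC trend. A change in a value without a test was held to have moved at 0.1 or more on the log2 scale, and the calculations were tested on simulated data. Python 3.11.15, numpy 2.4.6, pandas 2.3.3, scipy 1.17.1 and matplotlib 3.10.9 were used. Protein sequences were not used here.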

Additional observations from a re-analysis of the deposited data

How the results depend on the processing

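Pseudocounts of 0.1 and 1, median centring and quantile normalization left MT-ND6 the only member at least 1.5-fold lower in RNA. Under quantile normalization, which sets each value by its rank, its log2 RNA change was −0.60 in place of −1.17, no longer 2-fold. The RNA changes of MT-ND2 and MT-ND4 were then 0, as their ranks were the same in both groups. Division by the sum of the 13 mitochondrial mRNAs moved the median RNA change of the members to 0.18, and quantile normalization moved their median footprint change to 0.18. The sign of small footprint changes depended on scaling. That of MT-ND6 became 0.057 with median centring and 0.085 with quantile normalization, and that of MT-ND1 became 0.026 with quantile normalization. At an adjusted p under 0.01 no member rose in TE in the authors' deposited table (0 of 7), and at 0.1 the count was 2. With the GC trend removed 0 members rose, the median TE change became −0.0083 and those of MT-ND2 and MT-ND4 became −0.088 and −0.0083. Over all genes, 86 rose and 42 fell with that trend removed, in place of 524 and 410. Centring on the median gave 606 and 329. Multiplied by coding length, RNA of MT-ND4 and MT-ND4L was 51.7-fold apart in siCon and 79.1-fold in siIRE1a, and footprints of MT-ND5 and MT-ND6 14.6-fold and 15.3-fold. The cause of these differences was not tested.

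No paired analysis was possible because the tables hold 1 value per group and assay, and leaving out a replicate could not be run for the same reason. The number of reads behind each value is unknown, so counting error cannot be given.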

Other observations

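The overlapping pair MT-ATP8 and MT-ATP6, which also share an mRNA, differed less than MT-ND4L and MT-ND4. RNA over MT-ATP8 was 0.399 of that over MT-ATP6 in siCon and 0.339 in siIRE1a, and footprints were 1.53-fold and 1.58-fold higher. In both pairs the shorter, upstream frame had the lower RNA and the higher footprint abundance per length, in both groups. MT-ATP8 and MT-ND4L RNA changed by −0.58 and −0.54 on the log2 scale between groups, while MT-ATP6 changed by −0.34 and MT-ND4 by 0.08.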
